A study of Arabidopsis thaliana with 8 samples.

Results

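Leaves of salt-free M6PR plants stood apart from all other leaves of the experiment at 413 of 22746 probe sets, 305 of them above and 108 of them below every other array. The study grew Arabidopsis thaliana of 2 lines, an M6PR transgenic line and Col wild type, each without and with 100 mM NaCl, and took developed leaves 20 days after sowing, 6 days after the salt began. The groups are M6PR without salt (M6PR 0 mM), M6PR with 100 mM NaCl (M6PR 100 mM), Col with 100 mM NaCl (Col 100 mM) and Col without salt (Col 0 mM), with 2 arrays each. The NaCl was raised in steps of 50 mM every 2 days, watered from below and sprayed from above, and each sample came from at least 15 seedlings. Per the labels there were 2 replicate pots per treatment of a line, without saying which pot an array came from, so the spread between arrays may be partly technical.

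A probe set was taken when both M6PR 0 mM arrays lay above all other 6 arrays, or both below, with a gap over 0.75 log2 units between the nearest arrays of the 2 sides. Probe sets of 3 genes that met this limit, AT3G15630, AT1G19020 and EXLA1, were left out by name, leaving 413 of 416. The members were therefore chosen by the measured values of M6PR 0 mM against every other group. All differences that involve M6PR 0 mM are given below as descriptions, without a test.

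M6PR encodes mannose-6-phosphate reductase, a celery enzyme on the path to mannitol, a sugar alcohol that Arabidopsis does not normally accumulate in its leaves. Mannitol acts as a compatible solute and is studied as a protectant against salt. In leaves, sugar status is sensed in part by the SnRK1 kinase, which shifts cells between growth and the recycling of stored material. Anthocyanins are flavonoid pigments whose synthesis in leaves follows light and sugar, and whose sugar decorations are added by glycosyltransferases. Neither the promoter that drives the transgene nor the number of independent lines is given in the sources used here. The transcript of the transgene itself was not analysed here. The labels also state that the Col arrays were deposited a second time under other records, so it is not certain that both lines were handled together. In their descriptions the M6PR arrays carry the accession name Ws, not Col, so line, transgene and a possible difference in accession cannot be told apart.

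The values are log2 intensities. All arrays bottom out at the same floor, 2.15, and between 27.9% and 29.2% of the probe sets on an array sit within 0.01 of it. Values below log2 4 are treated here as background, a level chosen after the values were seen, and a ratio against such a group is given as "at least". The 3 measured leaf markers (RCA, LHCB4.1 and PRK) had array medians of 14.5 to 14.7, and 3 of the 4 measured root markers were below background on every array. The M6PR 100 mM replicate 1 array correlated with M6PR 0 mM replicate 1 at 0.983 and with its own replicate at 0.982, over all probe sets. The M6PR 100 mM replicate 2 array correlated most closely with Col 100 mM replicate 2, at 0.991. Several plastid photosystem genes read far lower in Col 100 mM replicate 1 than in replicate 2. These include psaA (2.39 against 13.30), psbD (3.78 against 11.46) and psbA (4.99 against 11.02). Not all such genes did so, as petL read 10.62 against 9.66. What this array adds to the Col comparisons beyond such genes was not tested. The order of the groups, the counts without overlap, the counts of calls and the median differences of the salted comparisons are therefore also given without the first array of each salted group. Leaves hold several cell types, and a lower value can mean fewer cells of a type or less RNA per cell, which these arrays cannot separate.

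The 305 members above had a median level of 8.01 in M6PR 0 mM, against 6.26 in M6PR 100 mM, 5.91 in Col 100 mM and 5.56 in Col 0 mM. Their median difference was 1.52 log2 units over M6PR 100 mM, 1.91 over Col 100 mM and 2.14 over Col 0 mM. The 108 members below had a median level of 5.14 in M6PR 0 mM, against 6.75 in M6PR 100 mM, 7.40 in Col 100 mM and 7.66 in Col 0 mM. Their median difference was -1.59 from M6PR 100 mM, -2.11 from Col 100 mM and -2.31 from Col 0 mM.

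**Figure D1:**
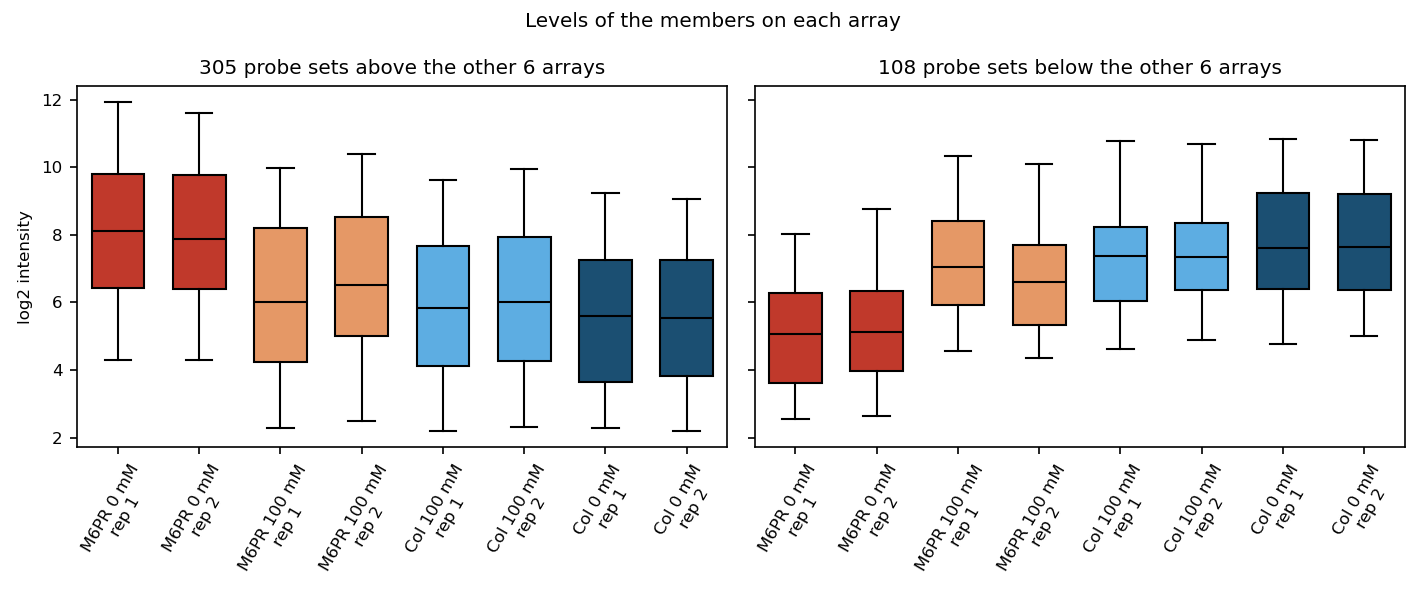
Log2 intensity of the members on each array, for the 305 members above (left) and the 108 below (right); boxes span the quartiles, the line is the median and the whiskers reach the 5th and 95th percentiles. In the right panel the medians step up through M6PR 100 mM, Col 100 mM and Col 0 mM. In the left panel they run down in the same order with 1 exception. There M6PR 100 mM replicate 1 (6.00) lies just under Col 100 mM replicate 2 (6.03), while M6PR 100 mM replicate 2 is at 6.53.

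For each member the group nearest to M6PR 0 mM was found. M6PR 100 mM was nearest for 192 of 305 members above (63.0%) and 74 of 108 below (68.5%). Col 0 mM was farthest for 190 members above (62.3%) and 61 below (56.5%). The matching shares over all probe sets were not counted, so these orders are not shown to be particular to the members. Over all probe sets the M6PR 0 mM arrays correlated at 0.980 to 0.988 with the M6PR 100 mM arrays. Their correlations with the Col arrays were 0.948 to 0.973. Without the first array of each salted group, M6PR 100 mM was nearest for 232 members above (76.1%) and 91 below (84.3%), and Col 0 mM farthest for 214 (70.2%) and 68 (63.0%). The nearest single array was M6PR 100 mM replicate 2 for 186 members above, against 35 for replicate 1 of that group. Among members below, replicate 2 was nearest for 56 and replicate 1 for 23. Replicate 2 lay above replicate 1 for 251 of the 305 members above and for only 31 of the 108 below, so this array sat closer to M6PR 0 mM in both directions. The counts without the first array of each salted group keep replicate 2 alone for M6PR 100 mM, which favours that group as the nearest. The same counts without the second arrays were not made.

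The gap had a median of 1.04 log2 units among members above and 1.02 among those below, and exceeded 2 for 18 above and 7 below. Its highest value was 3.84 above and 3.20 below, both at probe sets with no gene in the platform table. At 46 members above, all other 6 arrays were below background, so that those transcripts were detected in M6PR 0 mM arrays alone or in none. At 30 members below, the M6PR 0 mM mean itself was below background. Near the limit, AT1G02360 was inside with a gap of 0.753 and AT5G47180 with 0.756, while AT5G10695 was outside with 0.741 and AT5G53500 with 0.739. On the lower side AT5G46920 and AT3G05180 were inside with 0.765 and 0.779, and UGT78D1 and NRPB7 were outside with 0.749 and 0.747.

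Of the 413 members, 203 match 1 gene in the platform table (201 different genes), 6 match several and 204 match none. Of the 203, 24 carry a gene symbol and 179 a locus number alone. No role is given below for a gene known here by its locus number alone, unless it belongs to a gene list. The 15 genes with the largest gaps in each direction are taken first, among members whose brighter side was over log2 6.

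AT3G23550 had the largest gap of any named member above, 3.70 log2 units. It read 8.35 and 9.56 in M6PR 0 mM, against 3.49 and 4.66 in M6PR 100 mM, 3.53 and 3.49 in Col 100 mM, and 3.08 and 2.34 in Col 0 mM. Its means ± SD were 8.96 ± 0.85 in M6PR 0 mM and 4.07 ± 0.82 in M6PR 100 mM (n = 2 each), a 29.5-fold higher level, and at least 31.1-fold above Col 0 mM. Every other array was near or below background for this gene.

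AT5G62865 read 6.20 and 6.12 in M6PR 0 mM and no more than 3.56 on any other array, so it was detected in unsalted M6PR leaves only, at least 4.47-fold above the background level. AT5G25440 was expressed everywhere, with 9.59 and 9.66 in M6PR 0 mM, 7.24 and 7.55 in M6PR 100 mM, 6.92 and 7.28 in Col 100 mM, and 7.28 in both Col 0 mM arrays. Its level was thus about equal in the other groups, and 5.08-fold higher in M6PR 0 mM than in Col 0 mM. AT5G27920 (gap 2.05), AT3G45730 (1.62), AT5G39020 (1.59) and AT3G54100 (1.50) had the same shape, with the means of the other groups close together.

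A second shape was graded. AT1G54740 read 9.38 and 9.35 in M6PR 0 mM, against 6.44 and 7.73 in M6PR 100 mM, 5.69 and 6.00 in Col 100 mM, and 4.35 and 4.06 in Col 0 mM. No group overlapped another, and the level in M6PR 0 mM was 4.86-fold that in M6PR 100 mM and 35.8-fold that in Col 0 mM. AT1G52200 read 8.47 and 8.50 in M6PR 0 mM, 4.30 and 6.11 in M6PR 100 mM, 5.75 and 6.76 in Col 100 mM, and 2.83 and 3.53 in Col 0 mM. AT4G28085 and AT1G72060 also had their lowest values in Col 0 mM. AT2G15880 and AT5G54720 were at least 4.36-fold and at least 5.0-fold above Col 0 mM, which was below background. AT3G16530 instead had Col 0 mM as its nearest group, with 11.10 and 11.14 in M6PR 0 mM, 7.63 and 8.55 in M6PR 100 mM, 8.20 and 7.70 in Col 100 mM, and 9.55 and 9.49 in Col 0 mM. It was 8.15-fold higher in M6PR 0 mM than in M6PR 100 mM and 3.04-fold higher than in Col 0 mM.

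**Figure D2:**
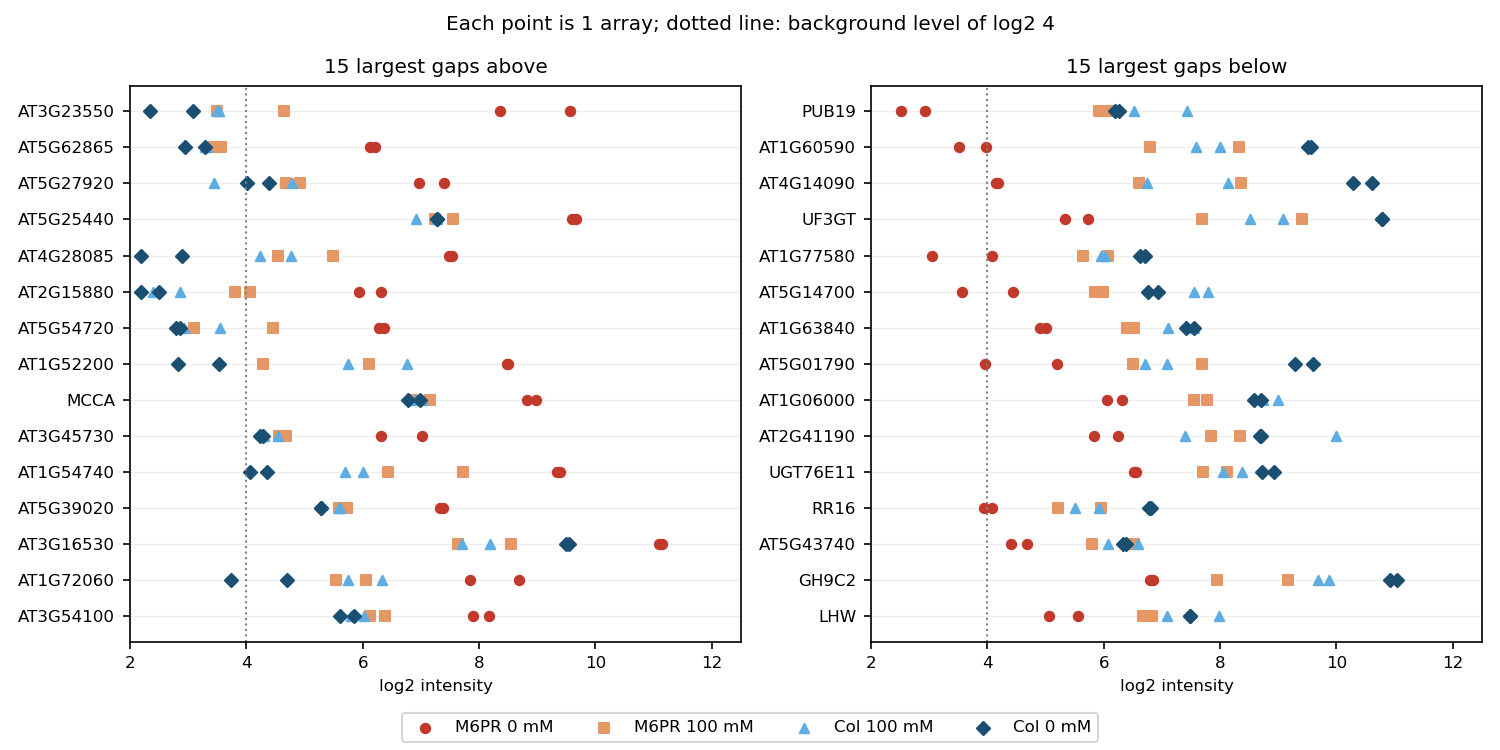
Log2 intensity on each of the 8 arrays for the 15 one-gene members with the largest gaps above (left) and below (right). Red points (M6PR 0 mM) lie apart from all others by the choice of members; Col 0 mM is often the farthest group, as at AT1G54740 (35.8-fold) and AT4G14090 (78.2-fold).

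Among members below, AT4G14090, which is on the list of flavonoid and anthocyanin genes as an anthocyanin glucosyltransferase, had the widest distance from Col 0 mM of these genes. It read 4.18 and 4.15 in M6PR 0 mM, against 8.37 and 6.60 in M6PR 100 mM, 6.74 and 8.13 in Col 100 mM, and 10.29 and 10.61 in Col 0 mM. The level in M6PR 0 mM was 78.2-fold below Col 0 mM and 9.99-fold below M6PR 100 mM. The salted groups overlapped each other and lay between the unsalted groups. UF3GT, another glycosyltransferase of the anthocyanin pathway, read 5.72 and 5.33 in M6PR 0 mM, 9.41 and 7.69 in M6PR 100 mM, 8.52 and 9.08 in Col 100 mM, and 10.79 in both Col 0 mM arrays. It was 38.3-fold lower in M6PR 0 mM than in Col 0 mM and repeated the order seen at AT4G14090.

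AT1G60590 read 3.52 and 3.98 in M6PR 0 mM, 8.32 and 6.79 in M6PR 100 mM, 8.0 and 7.58 in Col 100 mM, and 9.51 and 9.55 in Col 0 mM. It was below background in unsalted M6PR leaves, at least 46.2-fold under Col 0 mM. AT5G01790 read 3.97 and 5.20 in M6PR 0 mM, 7.69 and 6.50 in M6PR 100 mM, 6.71 and 7.09 in Col 100 mM, and 9.59 and 9.29 in Col 0 mM, a 29.0-fold lower level than in Col 0 mM. AT5G14700, by contrast, was highest in Col 100 mM, with 3.57 and 4.45 in M6PR 0 mM, 5.98 and 5.85 in M6PR 100 mM, 7.80 and 7.56 in Col 100 mM, and 6.77 and 6.93 in Col 0 mM. AT1G77580, AT1G63840, AT1G06000, AT2G41190 and AT5G43740 had gaps of 1.57, 1.38, 1.23, 1.16 and 1.12.

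The 24 members with a gene symbol are described next by what they are known to do. Most of them were taken for their symbol after the values were seen. Of the genes of sugar and energy metabolism, AKINBETA1 encodes a beta subunit of the SnRK1 kinase. It read 10.27 and 9.87 in M6PR 0 mM, 8.06 and 8.72 in M6PR 100 mM, 7.85 and 7.73 in Col 100 mM, and 6.89 and 6.63 in Col 0 mM. The groups did not overlap, and M6PR 0 mM was 9.92-fold above Col 0 mM. TMT1, a carrier that moves monosaccharides into the vacuole, read 9.58 and 9.71 in M6PR 0 mM, 8.31 and 8.50 in M6PR 100 mM, 8.25 and 8.31 in Col 100 mM, and 7.0 and 7.15 in Col 0 mM. It was 5.96-fold higher in M6PR 0 mM than in Col 0 mM, with the salted groups together in between. MCCA, the biotin-carrying subunit of methylcrotonoyl-CoA carboxylase in leucine breakdown, read 8.98 and 8.83 in M6PR 0 mM, 6.84 and 7.15 in M6PR 100 mM, 6.90 and 7.02 in Col 100 mM, and 6.98 and 6.77 in Col 0 mM. Unlike the others it was level across the other groups (6.99 ± 0.22, 6.96 ± 0.08 and 6.87 ± 0.14 in M6PR 100 mM, Col 100 mM and Col 0 mM, SD, n = 2 each), and 4.08-fold higher in M6PR 0 mM than in Col 0 mM.

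Of the genes of membrane sorting and protein turnover, ATG8E encodes a ubiquitin-like protein that coats the autophagosome membrane. It read 9.95 and 9.53 in M6PR 0 mM, 8.04 and 7.90 in M6PR 100 mM, 7.62 and 7.28 in Col 100 mM, and 6.30 and 5.54 in Col 0 mM. M6PR 0 mM was 14.1-fold above Col 0 mM and 3.41-fold above M6PR 100 mM, and no groups overlapped. VPS60.1, related to the ESCRT-III proteins of endosomal sorting, had the smallest gap of this set with TBL32 (0.76 each) and was 3.07-fold above Col 0 mM. ATL8, a RING-type ubiquitin ligase of the ATL family, read 7.12 and 6.66 in M6PR 0 mM, 4.76 and 5.19 in M6PR 100 mM, 5.17 and 5.15 in Col 100 mM, and 3.65 and 3.84 in Col 0 mM, where it was below background. The plant U-box ubiquitin ligases went in opposite directions. PUB24, known with its close relatives to dampen immune responses, read 6.33 and 6.64 in M6PR 0 mM, 3.89 and 5.47 in M6PR 100 mM, 5.32 and 5.13 in Col 100 mM, and 5.23 and 5.06 in Col 0 mM. PUB19, which has been tied to abscisic acid and drought responses, read 2.93 and 2.52 in M6PR 0 mM, 5.92 and 6.11 in M6PR 100 mM, 6.51 and 7.43 in Col 100 mM, and 6.27 and 6.19 in Col 0 mM. PUB19 was thus undetected in unsalted M6PR leaves and at least 4.68-fold under Col 0 mM.

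Of the signalling genes, RALFL22 encodes a secreted peptide of the rapid alkalinization factor family. It read 11.13 and 11.24 in M6PR 0 mM, 9.80 and 10.28 in M6PR 100 mM, 9.41 and 9.58 in Col 100 mM, and 8.11 and 7.94 in Col 0 mM, an 8.95-fold higher level in M6PR 0 mM than in Col 0 mM. Its groups followed the same graded order as AKINBETA1 and ATG8E. SAG101, a lipase-like partner of EDS1 in immunity through TIR-type receptors, read 6.74 and 6.32 in M6PR 0 mM and between 5.15 and 5.48 on all other arrays. B120, a receptor-like kinase, read 5.21 and 4.78 in M6PR 0 mM and 4.02 or less elsewhere, so it was near background outside unsalted M6PR leaves. RR16, a type-A response regulator of cytokinin signalling, lay on the other side, with 4.08 and 3.95 in M6PR 0 mM, 5.95 and 5.22 in M6PR 100 mM, 5.92 and 5.51 in Col 100 mM, and 6.78 and 6.82 in Col 0 mM, 6.89-fold lower in M6PR 0 mM than in Col 0 mM.

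Of the nuclear and cell-cycle genes, SIM (SIAMESE) encodes an inhibitor of cyclin-dependent kinases that starts endoreduplication in leaf hairs. It read 7.65 and 7.62 in M6PR 0 mM, 5.83 and 5.99 in M6PR 100 mM, 5.75 and 5.74 in Col 100 mM, and 6.04 and 6.34 in Col 0 mM. GT2, a trihelix transcription factor, read 8.96 and 8.71 in M6PR 0 mM, 7.59 and 7.75 in M6PR 100 mM, 6.00 and 6.17 in Col 100 mM, and 6.58 and 6.62 in Col 0 mM. For GT2 Col 100 mM was the lowest group and both M6PR groups were above both Col groups. OBE1, a PHD-finger protein needed for meristem formation, was 3.24-fold above Col 0 mM. LHW, a bHLH factor of vascular development, read 5.56 and 5.06 in M6PR 0 mM, 6.84 and 6.67 in M6PR 100 mM, 7.98 and 7.10 in Col 100 mM, and 7.48 in both Col 0 mM arrays. bHLH34 read 4.46 and 4.19 in M6PR 0 mM, 5.94 and 5.55 in M6PR 100 mM, 5.95 and 5.51 in Col 100 mM, and 7.21 and 7.70 in Col 0 mM, 8.77-fold lower in M6PR 0 mM than in Col 0 mM.

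The remaining symbols belong to enzymes and wall proteins, most of them below. WSD1, which makes wax esters for the plant surface, was at the lowest value of the file in M6PR 0 mM, with 2.15 and 2.16, against 6.16 and 5.23 in M6PR 100 mM, 5.49 and 5.53 in Col 100 mM, and 5.92 and 5.63 in Col 0 mM. It had a gap of 3.07, the largest of any named member below, and was at least 3.42-fold under Col 0 mM. EXPA15, an expansin that loosens walls, read 3.35 and 3.80 in M6PR 0 mM, 4.97 and 5.03 in M6PR 100 mM, 7.47 and 6.66 in Col 100 mM, and 5.77 and 5.81 in Col 0 mM. GH9C2, an endoglucanase, read 6.80 and 6.84 in M6PR 0 mM, 9.16 and 7.95 in M6PR 100 mM, 9.87 and 9.68 in Col 100 mM, and 11.04 and 10.92 in Col 0 mM, 17.9-fold lower in M6PR 0 mM than in Col 0 mM. Its groups were fully ordered, in the mirror image of AKINBETA1. UGT76E11, a glycosyltransferase, was 4.88-fold under Col 0 mM, and the cytochrome P450 CYP71B26 was 5.87-fold under. TBL32, which acetylates xylan, was the exception, 2.14-fold above Col 0 mM. Its probe set is of the kind shared by related transcripts, so the signal may not be that of TBL32 alone.

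**Figure D3:**
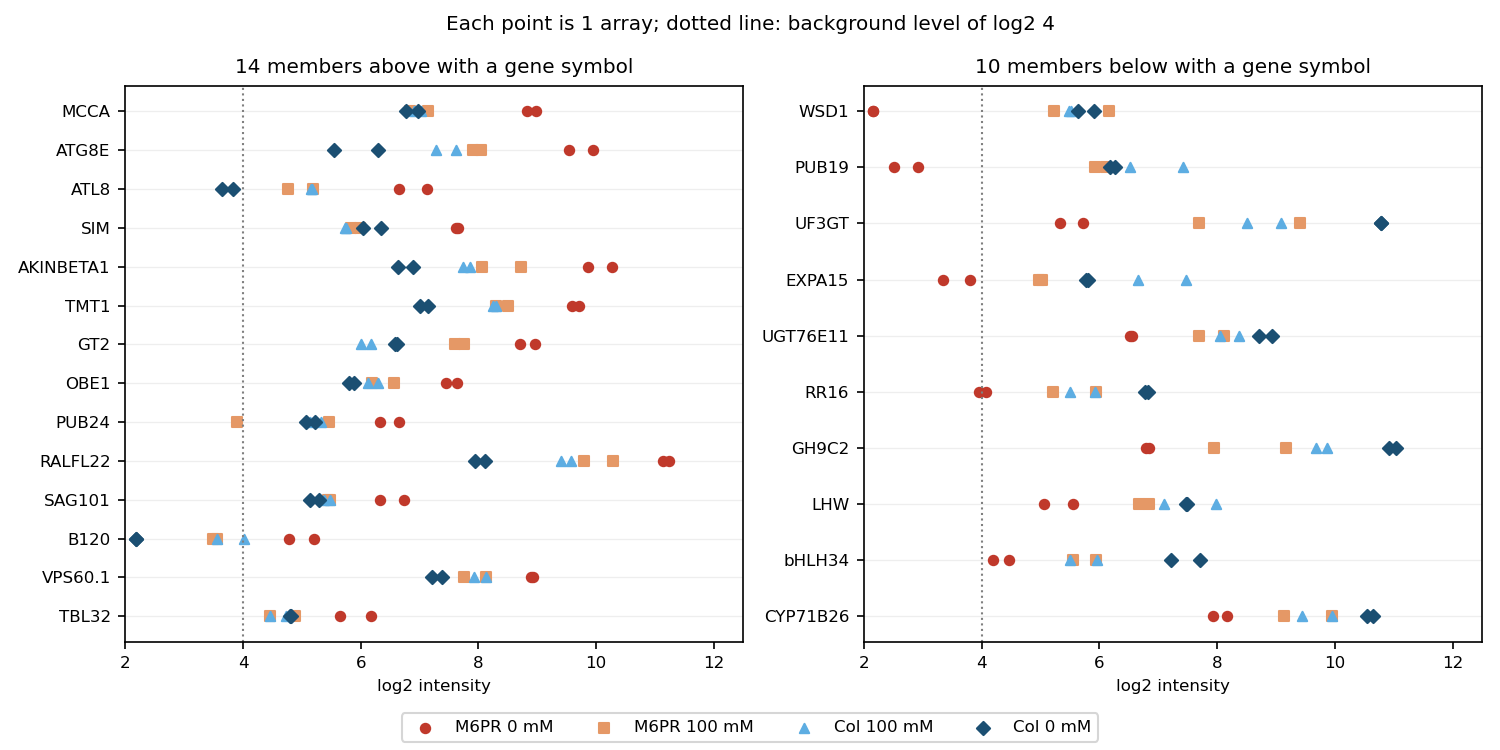
Log2 intensity on each array for the 14 members above (left) and 10 below (right) that carry a gene symbol, ordered by gap. ATG8E, AKINBETA1, RALFL22 and GH9C2 show a full order of the groups, while MCCA and SAG101 differ in M6PR 0 mM with the other groups close together.

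Of the 24 gene lists set up for this tissue, 5 held members. The list of genes raised by sugar shortage and darkness had 3 of its genes named on the array, of which AKINBETA1 and MCCA were members above. The third, BZIP53, a transcription factor of low-energy responses, read 11.40 and 11.53 in M6PR 0 mM, 12.47 and 12.17 in M6PR 100 mM, 11.70 and 11.86 in Col 100 mM, and 9.53 and 9.35 in Col 0 mM, so it was not set apart in unsalted M6PR. Of these 3, only BZIP53, which is not a member, passed the limma test in Col 100 mM against Col 0 mM, as higher. None passed in M6PR 100 mM against Col 100 mM. The 6 measured flavonoid and anthocyanin genes had a median level of 5.94 in M6PR 0 mM, against 8.02 in M6PR 100 mM, 8.61 in Col 100 mM and 10.6 in Col 0 mM. Members among them were AT4G14090 and UF3GT. UGT78D1, a flavonol rhamnosyltransferase, missed the limit with a gap of 0.749 and read 6.32 and 6.39 in M6PR 0 mM, 7.60 and 7.14 in M6PR 100 mM, 9.03 and 8.32 in Col 100 mM, and 9.11 and 8.76 in Col 0 mM. UGT78D2, a flavonoid glucosyltransferase, was lowest in M6PR 0 mM by 0.04. AT5MAT, an anthocyanin malonyltransferase, and DFR, which makes leucoanthocyanidins, overlapped with M6PR 100 mM. None of the 6 passed the limma test in either of the comparisons below.

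The list of cell wall loosening and brassinosteroid growth genes had 27 measured probe sets with 1 member, EXPA15, and 2 of the 27 were called higher and 1 lower in Col 100 mM against Col 0 mM. The 7 measured bHLH factors held 1 member, bHLH34, and it was the 1 called lower in that comparison, with 0 called higher. SAG101 was the 1 measured gene of the salicylic acid and defence list. No member was on the remaining lists, including those of dehydration and cold, jasmonate, circadian clock, heat shock, WRKY factors, photosystems, and leaf, root and epidermis markers. These lists were only partly measured by probe sets with 1 gene. That was 6 of 21 loci for dehydration and cold, 1 of 28 for jasmonate and 2 of 20 for the clock. It was 3 of 55 for heat shock, 7 of 72 for WRKY factors and 35 of 89 for photosystems. The 204 members that match no gene could not be on any list, so no conclusion is drawn from this absence. Flower, seed and vascular markers had no probe set with a gene name here.

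This comparison asks what salt did to the same transcripts in wild type. The rule did not use the difference between salted and unsalted Col leaves, but it held every Col array to one side of M6PR 0 mM. The M6PR 0 mM arrays also enter the limma estimate of spread. The calls are therefore not independent of the choice of members, and the same holds for the comparison of the salted lines below. Of the 305 members above, 29 were called higher in Col 100 mM than in Col 0 mM (9.51%), against 2.25% of all probe sets, and 10 were called lower (3.28%), against 2.99% of all. The call is a Benjamini-Hochberg adjusted p under 0.05 over all 22746 probe sets in limma. Of the 108 members below, 1 was called higher (0.926%), against 2.25% of all, and 5 lower (4.63%), against 2.99%. The median difference was 0.27 log2 units for members above and -0.23 for members below, against -0.06 over the 12849 probe sets with a mean level over log2 4 and 0.00 over all. When 1 array was left out these medians were 0.15 to 0.32 above and -0.38 to -0.17 below. They were 0.32 and -0.34 without the first array of each salted group. With each array centred on its median they were 0.05 and -0.45, against -0.22 over all probe sets.

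Both salted Col arrays were above both unsalted ones for 148 members above (48.5%), against 23.7% of all probe sets and 33.6% of those with a mean over log2 4. Both were below for 56 members above (18.4%), against 25.9% of all and 39.5% of the brighter ones. Among members below, both were below for 50 (46.3%), against 25.9% of all and 39.5% of the brighter ones. Both were above for 29 (26.9%), against 23.7% and 33.6%. Without the first array of each salted group, the remaining Col 100 mM array was above both unsalted ones for 190 members above (62.3%), against 28.9% of all and 40.0% of the brighter ones. It was below both for 67 members below (62.0%), against 32.6% of all and 48.4% of the brighter ones. The reverse was found for 72 members above (23.6%), against 32.6% of all and 48.4% of the brighter ones. It was found for 35 below (32.4%), against 28.9% and 40.0%.

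How many members above were called higher depended on the arrays in the fit. Without Col 100 mM replicate 2 the count was 11 (3.61%), which was a smaller share than the 4.7% of all probe sets. Without Col 100 mM replicate 1 it was also 11, against 2.41% of all. It was 7 (2.3%) without Col 0 mM replicate 1, against 0.637% of all, and 9 (2.95%) without Col 0 mM replicate 2, against 0.769%. It was 55 (18.0%) without either M6PR 100 mM array, against 5.24%, and 4 (1.31%) when the M6PR 0 mM arrays stayed out of the fit, against 0.51%. Without the first array of each salted group it was 37 (12.1%), against 4.94% of all. Salted Col leaves also differed at 1 of the 4 measured root markers and at 1 stomatal gene. PYK10, the root marker, read 10.28 and 7.51 in Col 100 mM, against 2.22 and 2.32 in Col 0 mM, and 2.83 and 6.27 in M6PR 100 mM. The stomatal lineage gene SPCH read 4.40 and 4.02 in Col 100 mM, against 2.21 in both Col 0 mM arrays. It was the 1 of 3 measured stomatal genes to do so, as FMA read 5.59 and 5.90 in Col 100 mM, against 6.38 and 5.95 in Col 0 mM, and MUTE was at most 2.30 on these arrays. The other 3 root markers stayed at the lowest values, and the part of such markers in the counts was not tested.

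**Figure D4:**
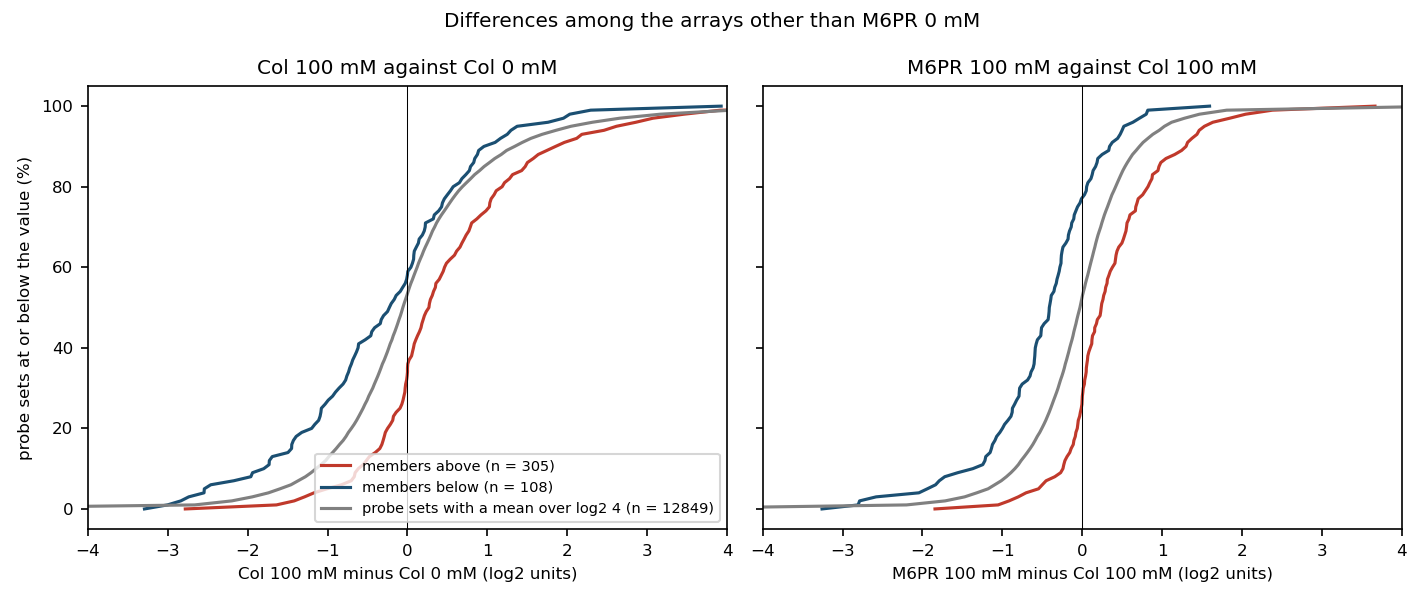
Percentage of probe sets at or below each log2 difference, for members above (red), members below (blue) and the 12849 probe sets with a mean over log2 4 (grey), in Col 100 mM minus Col 0 mM (left) and M6PR 100 mM minus Col 100 mM (right). The red curve lies to the right of grey and the blue curve to the left of it at the median in both panels (0.27 and -0.23 on the left, 0.24 and -0.41 on the right).

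Of the 29 members above called higher, 15 match 1 gene, and Col 0 mM was the farthest group from M6PR 0 mM for all 29. The salted Col level lay between the unsalted groups for these probe sets, which the choice of members and the call together fix. AT1G22890 had the largest difference of the 5 with the smallest adjusted p. It read 10.26 and 9.95 in M6PR 0 mM, 8.47 and 8.80 in M6PR 100 mM, 8.20 and 8.51 in Col 100 mM, and 5.27 and 5.69 in Col 0 mM, and was 2.88 ± 0.23 log2 units (SE) higher in Col 100 mM than in Col 0 mM (limma adjusted p = 0.0143). TMT1 was higher by 1.21 ± 0.09 (limma adjusted p = 0.0134). AT2G30930 read 10.88 and 11.08 in M6PR 0 mM, 9.77 and 9.94 in M6PR 100 mM, 7.40 and 7.85 in Col 100 mM, and 6.00 and 6.08 in Col 0 mM. Its rise in Col was 1.59 ± 0.18 (limma adjusted p = 0.0264), and its level in M6PR 0 mM was 30.7-fold that in Col 0 mM. AT4G17245 and AT1G17620 were higher in Col 100 mM by 1.49 ± 0.17 and 1.34 ± 0.15. RALFL22 (1.47), ATL8 (1.42) and B120 (1.60), named here for their symbols after the values were seen, were among the 15 as well. The B120 means were below background in both Col groups, at 3.79 in Col 100 mM and 2.19 in Col 0 mM. The ATL8 mean was below background in Col 0 mM, at 3.75, so the sizes of these 2 differences are uncertain. ATG8E at 1.53 and AKINBETA1 at 1.03 did not pass the test (limma adjusted p = 0.0682 and 0.106).

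The members above called lower in salted Col had the opposite arrangement, with Col 100 mM below the rest. AT3G46880 read 7.47 and 7.86 in M6PR 0 mM, 4.87 and 5.30 in M6PR 100 mM, 3.41 and 3.48 in Col 100 mM, and 6.23 and 6.22 in Col 0 mM. It fell by 2.78 ± 0.20 log2 units in Col (SE, limma adjusted p = 0.0118), to a level below background. This call held in all 17 alternative settings, though these are not all different fits. Leaving out either M6PR 0 mM array gives the same Col result, for example. AT1G51790 read 6.52 and 6.25 in M6PR 0 mM, 3.99 and 4.19 in M6PR 100 mM, 3.16 and 3.28 in Col 100 mM, and 5.04 and 4.80 in Col 0 mM, and fell by 1.70 ± 0.14 in Col (limma adjusted p = 0.015). AT1G03020 fell by 1.64 ± 0.19 and AT5G63020 by 0.87 ± 0.10. In these 4 genes M6PR 100 mM was also below M6PR 0 mM, which the choice of members fixes.

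The 1 member below called higher in salted Col was AT3G57010, with 2.22 in both M6PR 0 mM arrays, 3.39 and 4.92 in M6PR 100 mM, 6.85 and 7.97 in Col 100 mM, and 3.49 and 3.48 in Col 0 mM. The 5 called lower were bHLH34, AT1G63850, AT1G48100 and 2 probe sets with no gene name. AT3G57010 and AT1G48100 were named after their values were seen. AT1G63850 fell by 1.19 ± 0.10 in Col (limma adjusted p = 0.015) and bHLH34 by 1.73 ± 0.27 (limma adjusted p = 0.0479). AT1G48100 read 4.30 and 3.24 in M6PR 0 mM, 6.09 and 5.27 in M6PR 100 mM, 5.76 and 5.98 in Col 100 mM, and 8.68 and 8.74 in Col 0 mM. AT4G14090 and UF3GT were lower in Col 100 mM by 3.02 and 1.99 log2 units, which did not pass the test (limma adjusted p = 0.0956 and 0.135).

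Leaving out single arrays ended some of these calls. Those of AT4G17245, AT2G30930, AT1G17620, AT1G03020, AT5G63020, AT1G51790 and bHLH34 were lost without at least 1 of the Col arrays, and those of AT1G22890 and AT1G63850 without either M6PR 0 mM array. TMT1 lost its call only when the first array of each salted group was left out together (limma adjusted p = 0.0502). The highest adjusted p over the alternatives was 0.15 for bHLH34 and 0.124 for AT1G03020.

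**Figure D5:**
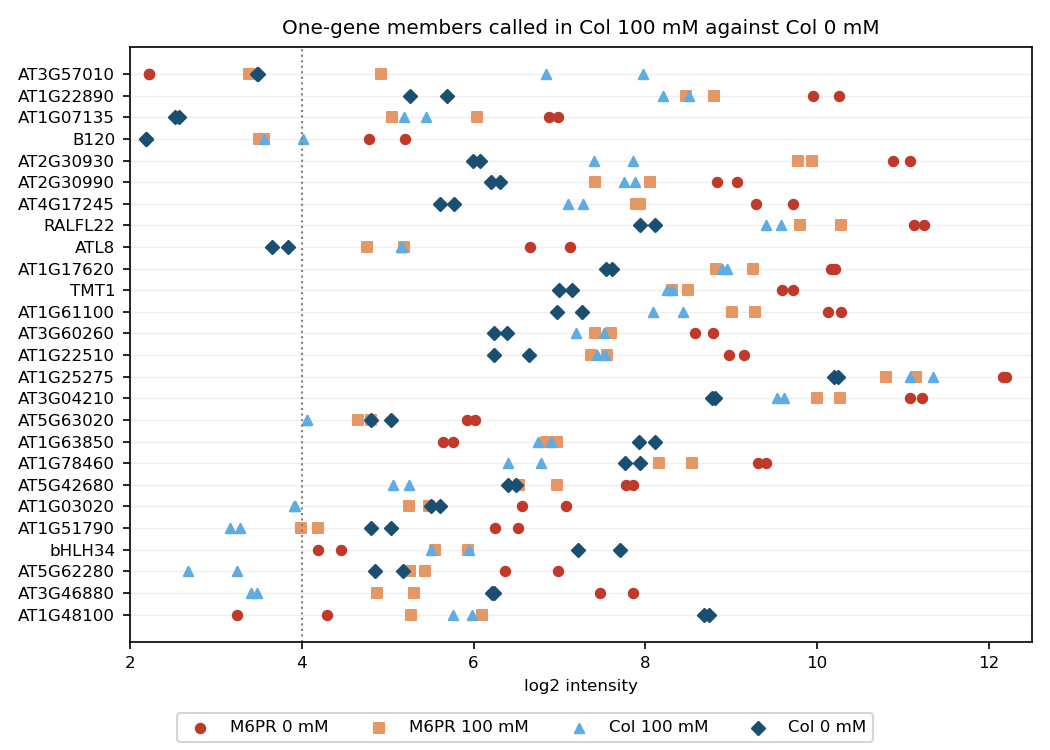
Log2 intensity on each array for the one-gene members called in Col 100 mM against Col 0 mM, ordered from the highest to the lowest difference. In the upper rows Col 100 mM (light blue) lies between Col 0 mM (dark blue) and M6PR 0 mM (red), as at AT1G22890. The choice of members and the call together fix this order. AT3G57010 in the top row is the 1 member below called higher.

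The last comparison set the salted lines against each other and asks whether the members also differ between M6PR and Col under salt. No member was called in M6PR 100 mM against Col 100 mM in limma, where 0.0352% of all probe sets were called higher and 0.101% lower. At an unadjusted p under 0.05 there were 67 members above, 33 members below and 2947 of all 22746 probe sets. The members' median difference was 0.24 log2 units above and -0.41 below, against -0.03 over probe sets with a mean over log2 4. When 1 array was left out these medians were 0.06 to 0.43 above and -0.59 to -0.34 below. They were 0.37 and -0.61 without the first array of each salted group, and 0.43 and -0.22 with each array centred on its median, against 0.20 over all probe sets. Both M6PR 100 mM arrays were above both Col 100 mM arrays for 128 members above (42.0%), against 15.4% of all probe sets and 23.4% of the brighter ones. Both were below for 48 members below (44.4%), against 19.1% of all and 26.6% of the brighter ones. The reverse arrangement was found for 17 members above (5.57%), against 19.1% of all and 26.6% of the brighter ones. It was found for 4 below (3.70%), against 15.4% and 23.4%. Without the first array of each salted group, the remaining M6PR 100 mM array was above the remaining Col 100 mM array for 255 members above (83.6%), against 35.2% of all probe sets and 49.9% of the brighter ones. It was below for 100 members below (92.6%), against 35.2% and 49.5%. The reverse was seen for 42 above (13.8%), against 35.2% and 49.5%, and for 8 below (7.41%), against 35.2% and 49.9%. The M6PR 100 mM array kept here is replicate 2, which sat closer to M6PR 0 mM at most members, so these shares lean to the members' side. Without M6PR 100 mM replicate 2 instead, the median differences were 0.06 above and -0.34 below.

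GT2 came nearest to a call, higher by 1.58 log2 units in M6PR 100 mM (limma adjusted p = 0.0519). AT2G30930 followed, higher by 2.23 (limma adjusted p = 0.0606). These were picked for their p after the values were seen. Leaving out salted arrays gave calls among the members, and more calls among all probe sets as well. Without the first array of each salted group 11 of the 413 members were called (2.66%), 8 above as higher and 3 below as lower, against 2.58% of all. Without Col 100 mM replicate 2 alone 34 were called (8.23%), against 5.33% of all. Without M6PR 100 mM replicate 2 alone 14 were called (3.39%), a smaller share than the 4.46% of all, and 7 of these 14 ran against the side of their members. Leaving out M6PR 100 mM replicate 1 or Col 100 mM replicate 1 gave 3 each (0.726%), against 0.47% and 1.61% of all. With each array centred on its median 19 were called (4.6%), against 0.611% of all, so the count of 0 rests on which arrays and scaling enter.

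AT1G18390 and AT2G30600 were each represented by 2 member probe sets, all above. For AT2G02410, AT2G31110 and AT2G31010 a further probe set of the same gene pointed the same way but missed the limit, with gaps of 0.365, 0.665 and 0.696. In chromosome order, 8 pairs of named members lay within 2 genes of each other. AT2G31800 and AT2G31810 were direct neighbours above, and AT1G63840 and AT1G63850 direct neighbours below. AT2G30600 and AT2G30620 were the 1 pair in opposite directions. At 14 members the probe set name ends in _s_at, which marks probes shared by related transcripts, and the signal of such relatives cannot be separated.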

How the data were processed

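Leaf RNA from 8 samples (4 groups, 2 arrays each) was hybridised to one-colour arrays. The authors' deposited table holds log2 intensities, made with GCOS and RMA per the submitters' processing notes; versions, the background model and the arrays normalised together are not given in the sources used here. From 22810 probe sets 64 array controls were left out. Genes come from the platform table; over all 22746 probe sets 13513 match 1 gene, 503 several and 8730 none, and 13484 of the 13513 were matched to RefSeq (TAIR10.1).

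The 413 members and the gene lists were chosen with earlier results of these data known. Genes named are those with 1 gene: the 15 largest gaps in each direction with the brighter side over log2 6, members on a list, and up to 5 per direction with the smallest adjusted p in each comparison; others are said to be chosen later. Col 100 mM against Col 0 mM and M6PR 100 mM against Col 100 mM were tested with limma 3.58.1 in R 4.3.3. The fit had 1 mean per group over all 8 arrays, with empirical Bayes, two-sided tests and Benjamini-Hochberg adjustment over 22746 probe sets. It was also run on data simulated from the means and spreads of these arrays, and the outcome of that run is not given here. SD is over 2 arrays and SE is limma's; the number of arrays limits the precision. Differences between replicate arrays correlated at 0.486 between the M6PR groups, -0.147 between M6PR 100 mM and Col 100 mM and 0.0153 between the Col groups, so replicate numbers were not taken to pair samples. Alternatives were the gap limit, scaling, a filter on dim probe sets, the variance prior, the arrays fitted, a replicate block and leaving out each array.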

Additional observations from a re-analysis of the deposited data

Results flagged for a closer look

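For many members the salted arrays lay on opposite sides of the unsalted arrays in the 2 lines. For 148 of the 305 members above, both salted Col arrays were higher than both unsalted Col arrays, while both salted M6PR arrays were lower than both unsalted M6PR arrays. For 50 of the 108 members below, both salted Col arrays were lower and both salted M6PR arrays higher than the unsalted arrays of their line. The M6PR side of this is fixed by the choice of members, and the difference between the lines was not tested. The Col side alone is set against 23.7% and 25.9% of all probe sets, and 33.6% and 39.5% of those with a mean over log2 4.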

How the results depend on the processing

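Over all probe sets meeting the rule, the 413 members (305 above, 108 below) became 781 (551 and 230) with a gap over 0.5 and 217 (161 and 56) with a gap over 1, and 427 to 754 (315 to 495 and 111 to 259) when 1 array was left out. Median centring kept 365 of the 413 and a further quantile normalisation 373. The 2 doubted arrays, left out together after the data were seen, gave 177 members below. In Col 100 mM against Col 0 mM the 45 members called became 106 with median centring, 100 without the dimmest 25% of probe sets, 27 with only the Col arrays fitted, 8 without the M6PR 0 mM arrays and 8 to 89 when 1 array was left out. The 29 members above called higher became 55, 64, 21, 4 and 4 to 55 under the same settings. With the replicate block these counts were 14 and 9, and every pairing is by number alone. The share of members called was 10.9% at first, against 5.24% of all probe sets. It was 25.7% against 18.7% with median centring and 24.2% against 20.5% without the dimmest probe sets. With only the Col arrays it was 6.54% against 3.48%, and without the M6PR 0 mM arrays 1.94% against 1.11%. With the block it was 3.39% against 2.18%. In M6PR 100 mM against Col 100 mM the count of 0 became 19 with median centring, 1 with quantile normalisation, 8 without dim probe sets, 11 without the doubted arrays and 0 to 34 when 1 array was left out; the replicate block gave 0, and so did the block with the Col 100 mM numbers crossed. Of the 11 named calls in Col, AT3G46880 passed in all 17 alternatives, TMT1 in 16 and bHLH34 in 5, where some alternatives repeat the same fit. The cause of these shifts was not tested. The planned count of promoter motifs was not run, since no promoter sequence was used here. Low signal limits 40 members whose M6PR 0 mM mean was below background.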
